A study of Rattus norvegicus with 9 samples.

Results

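The NLRP3 inflammasome is a protein platform that macrophages and other cells assemble on sensing damage. A sensor (NLRP3) joins an adaptor (ASC, encoded by Pycard), which gathers and activates the protease caspase-1. Caspase-1 matures the cytokines IL-1β and IL-18 and cleaves gasdermin D, whose fragment forms pores in the cell membrane and brings about the lytic death called pyroptosis, and IL-1β then acts on its receptor IL1R1. After myocardial infarction (MI) the pathway is known for its part in the sterile inflammation of the injured wall. The 7 genes Nlrp3, Pycard, Casp1, Il1b, Il18, Il1r1 and Gsdmd, chosen by name from the 35843 genes of the expression table, were described in the left ventricle of rats.

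RNA-seq was performed on 9 Sprague-Dawley rats at day 28, 3 in each of 3 groups, and the study's methods describe adult males. Rats of group MI had a coronary artery (the left anterior descending branch) tied off for good and received saline by daily gavage. Rats of group MI + DAPA (1st d) had the same operation and received dapagliflozin (DAPA), an inhibitor of the sodium-glucose co-transporter SGLT2, at 1 mg/kg by daily gavage from the first day. Rats of group Sham were operated on without tying the artery and received saline. For the sequencing the methods name left ventricle and the study speaks of infarcted myocardium, while for its molecular work in general they describe mainly tissue at the border of the infarct with scar removed, so how much scar the sequenced pieces held is not settled by these sources. Each value is a mixture of many cell types. Fewer cells of a type and less RNA per cell cannot be told apart in such bulk tissue. Levels are given as FPKM (fragments per kilobase of transcript, with the scaling of each library as deposited by the authors). Differences are given as log2 fold changes of FPKM + 1, a scale that understates the change of genes with low values.

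The libraries held between 13597239 and 17210909 reads recovered from the FPKM steps. Genes of the mitochondrial genome took 61.1% to 66.9% of these in the Sham group, 7.07% to 19.1% in the MI group and 17.5% to 32.0% in group MI + DAPA (1st d). The deposited scaling did not follow the total reads. The number by which reads were divided in MI replicate 1 was 1.85 times that of Sham replicate 1, on 15565791 against 16899773 reads. In the deposited scaling the median gene differed by -0.005 (log2) between the MI group and the Sham group. It differed by -0.018 between the treated rats and the MI group, and by 0.007 between the treated rats and the Sham group. Rescaling every rat to a common total, transcripts of the mitochondrial genome included, moved these medians to 1.301, -0.341 and 1.003. With the mitochondrial genome left out of the rescaling they were -0.021, -0.078 and -0.069. Every change below is therefore relative to the median gene of the deposited scaling. Cardiomyocyte markers were abundant in every rat, with summed FPKM of 9522 to 13630 in the Sham group, 3106 to 16030 in the MI group and 12610 to 26570 in the treated rats.

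The promoters of 6 of the 7 genes were found in RefSeq (build GRCr8), and 2 of them are shown because Pycard passed the test after MI and Il1b did not overlap between the MI group and the Sham group. Each run holds the 250 bases before the annotated start of the gene, on the minus strand and written 5′ to 3′, and capitals mark a TATA box. The Pycard run lies at chr1:192033420-192033669 and the Il1b run at chr3:137036582-137036831.
Pycard: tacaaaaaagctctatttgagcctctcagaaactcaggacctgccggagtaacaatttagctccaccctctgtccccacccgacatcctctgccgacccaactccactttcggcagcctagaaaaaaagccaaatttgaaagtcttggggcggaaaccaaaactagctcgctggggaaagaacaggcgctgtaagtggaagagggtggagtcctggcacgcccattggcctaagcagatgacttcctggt
Il1b: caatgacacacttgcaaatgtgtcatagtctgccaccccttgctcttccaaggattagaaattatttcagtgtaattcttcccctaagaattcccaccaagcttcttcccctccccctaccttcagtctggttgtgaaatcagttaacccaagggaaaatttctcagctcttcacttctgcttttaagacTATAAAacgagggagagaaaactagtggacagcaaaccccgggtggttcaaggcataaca

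In the windows of 300 bases from which these runs were taken, 4 motifs were searched on both strands. The TATA box (TATAAA), which was added to the search after the sequences had been read, was found in Il1b of the 6 genes, with its first base at -60, and in 14.2% of the 33469 windows of all genes. The consensus of the inflammatory factor NF-kB was found in Il1r1 of the 6 and in 4.18% of all windows. The core site of AP-1 (TGANTCA) was found in Il18 of the 6 and in 7.33% of all windows, and the repeat read by interferon regulatory factors in Casp1 of the 6 and in 3.92% of all windows. The windows of Nlrp3 and Pycard held none of these letters. The starts used for Nlrp3, Casp1 and Il1r1 lay inside the annotated span of the gene, by 1799, 126492 and 33825 bases, so these windows may not be the main promoters and are not printed.

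Nlrp3, the sensor, was the member that differed most between the MI group and the Sham group. Its FPKM was 0.391, 0.376 and 0.192 in the 3 Sham rats, on 17, 16 and 7 reads. It was 3.26, 3.63 and 3.41 in the MI group, on 261, 266 and 271 reads. The treated rats had 1.72, 1.26 and 2.48, on 118, 84 and 186 reads. The 3 groups did not overlap with each other, with the Sham group lowest, the treated rats between and the MI group highest. The mean was 10.7 times that of the Sham group in the MI group and 5.70 times in the treated rats. Nlrp3 was higher in the MI group than in the Sham group by 1.75 (SE 0.189, limma adjusted p = 0.00136) on the log2 scale. Because all Sham rats lay under 1 FPKM, Nlrp3 entered this test only through the MI rats and had to differ there. Without any filter it was called as well. When an MI rat was left out and the filter reapplied to the other 5 rats, Nlrp3 was no longer tested. On the same genes as with all 6 rats it was called without any 1 rat, at 1.68 to 1.79. The left-out rat had helped to set that list of genes, so these fits do not test the entry of Nlrp3.

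Pycard, which encodes the adaptor ASC, was the other member called higher in the MI group. Its FPKM was 20.8, 9.67 and 12.5 in the Sham group, 20.3, 47.1 and 25.8 in the MI group, and 19.5, 17.2 and 32.5 in the treated rats. MI replicate 2 was far above the other rats, and MI replicate 1 lay below Sham replicate 1, so the groups overlapped. Pycard was higher in the MI group than in the Sham group by 1.04 (SE 0.367, limma adjusted p = 0.0593), just over the fold threshold and with only its unadjusted p under 0.05. The call was lost without MI replicate 2 (0.71), without Sham replicate 2 (0.81) and without Sham replicate 3 (0.98).

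Casp1, which encodes the protease of the platform, was the member with the highest level in the Sham group, at 25.8, 22.1 and 24.8 FPKM. It was 9.43, 25.3 and 15.9 in the MI group and 12.5, 12.2 and 20.1 in the treated rats. The MI group spread widely and overlapped with the Sham group, while all 3 treated rats lay below every Sham rat. The difference of the MI group from the Sham group was -0.60 (SE 0.315, limma adjusted p = 0.174). Rescaling to a common total turned its sign to 0.89, while with the mitochondrial genome left out of the rescaling it stayed at -0.66. In the deposited scaling the difference stood at -0.26 without MI replicate 1 and at -0.92 without MI replicate 2. In the latter fit the limma adjusted p was 0.0306 on the same genes, and the difference was still under the fold threshold.

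Of the cytokines that caspase-1 matures, Il1b had 4.59, 2.86 and 2.60 FPKM in the Sham group, 4.82, 7.06 and 6.05 in the MI group, and 9.33, 2.81 and 5.50 in the treated rats. All MI rats were above all Sham rats, by a margin as narrow as 4.82 against 4.59. Il1b was higher in the MI group by 0.70 (SE 0.229, limma adjusted p = 0.0480), under the fold threshold. The difference was 0.891 without Sham replicate 1, with a limma adjusted p of 0.0228. Without any 1 of the other rats it was 0.575 to 0.821, with limma adjusted p of 0.0638 to 0.1364. With all 9 rats in 1 fit the limma adjusted p was 0.1315. The treated rats held the highest value of the 9, in replicate 1, and a value at the level of the Sham group, in replicate 2. The summed FPKM of neutrophil markers was 190.2 in DAPA replicate 1 and 12.9 to 75.6 in the other 8 rats, and its part in the Il1b value was not tested.

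Il18 had 4.55, 8.03 and 8.12 FPKM in the Sham group, 7.91, 12.5 and 10.6 in the MI group, and 6.80, 3.90 and 7.69 in the treated rats. The MI group overlapped with the Sham group through MI replicate 1, and each of the treated rats had less than any MI rat. The difference of the MI group from the Sham group was 0.54 (SE 0.256, limma adjusted p = 0.137), with 0.30 left without Sham replicate 1.

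Il1r1, the receptor through which IL-1β acts, had 12.0, 13.4 and 17.8 FPKM in the Sham group, 23.3, 17.7 and 16.6 in the MI group, and 18.5, 11.2 and 22.4 in the treated rats. Gsdmd, which encodes the pore-forming gasdermin D, had 17.2, 16.5 and 8.74 in the Sham group, 17.2, 22.3 and 17.6 in the MI group, and 16.9, 13.4 and 18.0 in the treated rats. All groups overlapped for both genes. Their differences of the MI group from the Sham group were 0.39 for Il1r1 and 0.45 for Gsdmd, with limma adjusted p of 0.161 and 0.219. That of Il1r1 was 0.25 without MI replicate 1, and that of Gsdmd was 0.16 without Sham replicate 3.

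**Figure D1:**
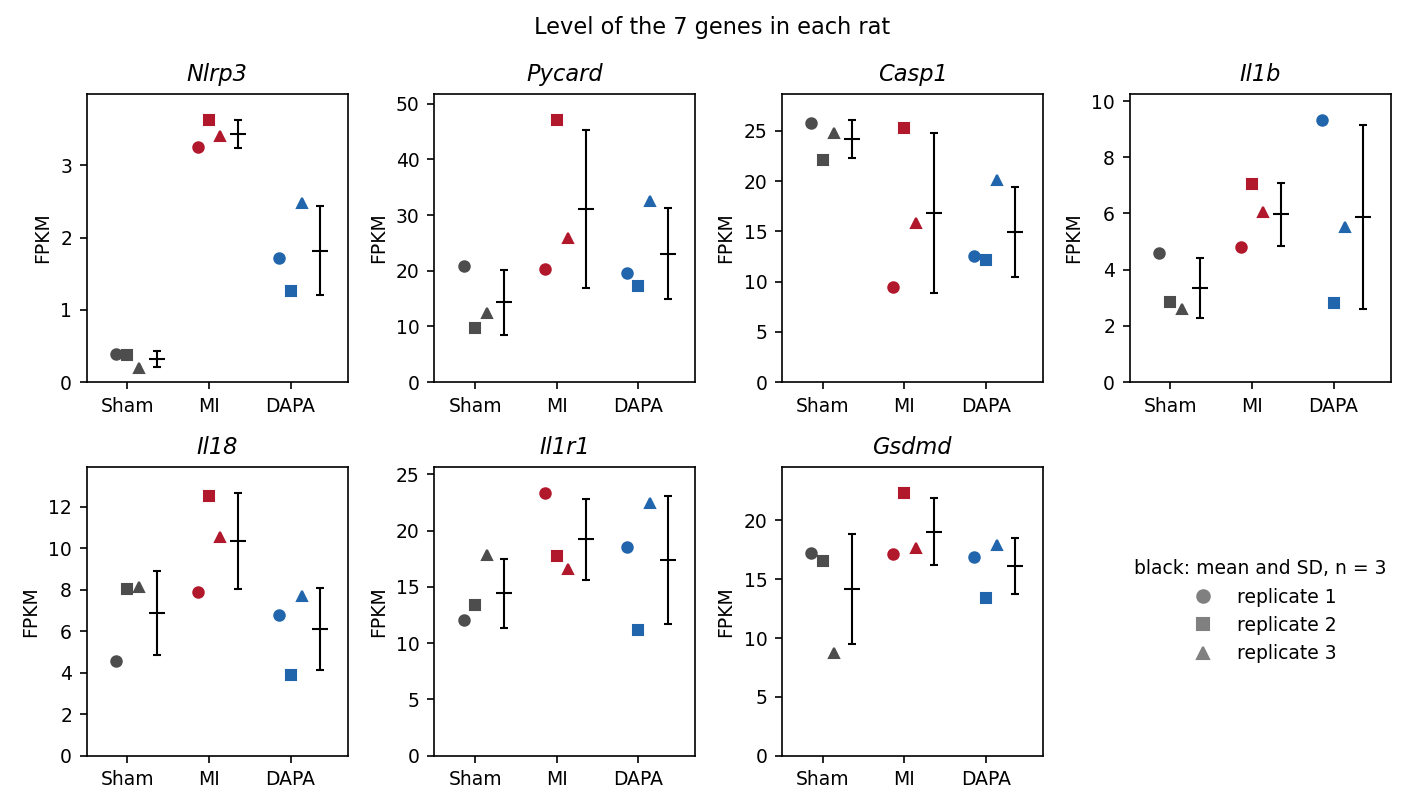
FPKM of the 7 genes (vertical axes from 0, 1 scale per gene) in each rat of groups Sham, MI and MI + DAPA (1st d), the last written DAPA, with symbols for the replicate number and black bars for the mean and SD of 3 rats. Nlrp3 lies between 0.192 and 0.391 in the Sham group and between 3.26 and 3.63 in the MI group, while the groups of Il1r1 and Gsdmd overlap.

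Between the MI group and the Sham group, 2 of the 7 members were called higher and 0 were called lower, a call being an unadjusted limma p under 0.05 with a log2 fold change over 1. Of the 13485 genes tested, 12.1% were called higher and 10.3% lower. A p under 0.05 at any fold was reached by 3 of the 7, against 49.0% of all genes. The groups did not overlap in 2 of the 7, against 54.6% of all genes. The median difference of the members was 0.54, with 6 positive and 1 negative, beside a median of -0.005 over all genes tested. Nlrp3 is among the members called, with a p under 0.05, without overlap and positive. It entered the test only through the MI rats and had to differ there.

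Ranked by FPKM, which is per length, Casp1 was highest in the Sham group (mean 24.2), above the range of the next gene. Il1r1, Pycard and Gsdmd followed at 14.4, 14.3 and 14.2 and their ranges overlapped. In the MI group, Pycard was first at 31.1, followed by Il1r1, Gsdmd and Casp1 at 19.2, 19.0 and 16.9, each overlapping with the next. Il18, Il1b and Nlrp3 took the last places in that order in all 3 groups, and Nlrp3 was below the range of Il1b in each. Il18 and Il1b overlapped in the Sham group and in the treated rats, and not in the MI group.

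Between the treated rats and the MI group, 0 of the 7 members were called, and all 7 differences were negative. Of the 13251 genes tested, 0.951% were called higher and 1.11% lower, and 0 had an adjusted p under 0.05. The largest differences were those of Il18 and Nlrp3, whose groups did not overlap. Il18 differed by -0.69 (SE 0.262, limma adjusted p = 0.558) and Nlrp3 by -0.67 (SE 0.197, limma adjusted p = 0.558). These 2 of 7 members stand beside 8.49% of all genes with a p under 0.05 and 13.8% of all genes without overlap. The differences of the other 5 lay between -0.38 for Pycard and -0.10 for Casp1. Their 95% confidence intervals included 0, and the widest of them, that of Casp1, ran from -0.95 to 0.75. The median of the 7 was -0.23, beside -0.018 over all genes. DAPA replicate 2 was the lowest of its group in 7 of the 7 members and DAPA replicate 3 the highest in 6. The difference of Pycard was -0.04 without MI replicate 2 and -0.64 without DAPA replicate 3, and that of Il18 was -0.44 without DAPA replicate 2. Without DAPA replicate 2 the differences of Casp1, Il1b and Il1r1 turned to 0.02, 0.25 and 0.10. Markers of other cells differed in the same comparison. Those of T and NK cells were called lower in 3 of 10 tested (Cd3e, Nkg7 and Cd4), those of B and plasma cells in 2 of 3 (Jchain and Ighm) and those of fibroblasts in 1 of 10 (Col1a1), while 2 of 14 cardiomyocyte markers (Myl2 and Tnni3) were called higher. The median differences of these lists were -1.32, -4.20, -0.52 and 1.31. Of the 9 B and plasma cell markers found, 3 were tested, and the MI rats differed widely in them. Jchain was 23.9, 2881 and 503.2 FPKM in the MI rats and 5.05 to 8.87 in the treated rats. Ighm was 10.5, 713.3 and 122.4 in the MI rats and 3.11 to 6.04 in the treated rats. The part of these lists in the members' differences was not tested.

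Between the treated rats and the Sham group, 1 of the 7 members was called higher and 0 lower, beside 9.54% and 8.16% of 13359 genes. The call was that of Nlrp3 at 1.08 (SE 0.264, limma adjusted p = 0.0214), which again entered the test only through the treated rats. It fell below the fold threshold without DAPA replicate 3, at 0.91. Casp1 differed by -0.69 (SE 0.213, limma adjusted p = 0.0449), under the fold threshold and without overlap. Rescaling to a common total turned its sign to 0.44, while with the mitochondrial genome left out of the rescaling it stayed negative at -0.81. A p under 0.05 was reached by 2 of the 7 and an absence of overlap by 2 of the 7, beside 41.4% and 46.5% of all genes. The comparisons share rats, so their values are not independent of each other.

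**Figure D2:**
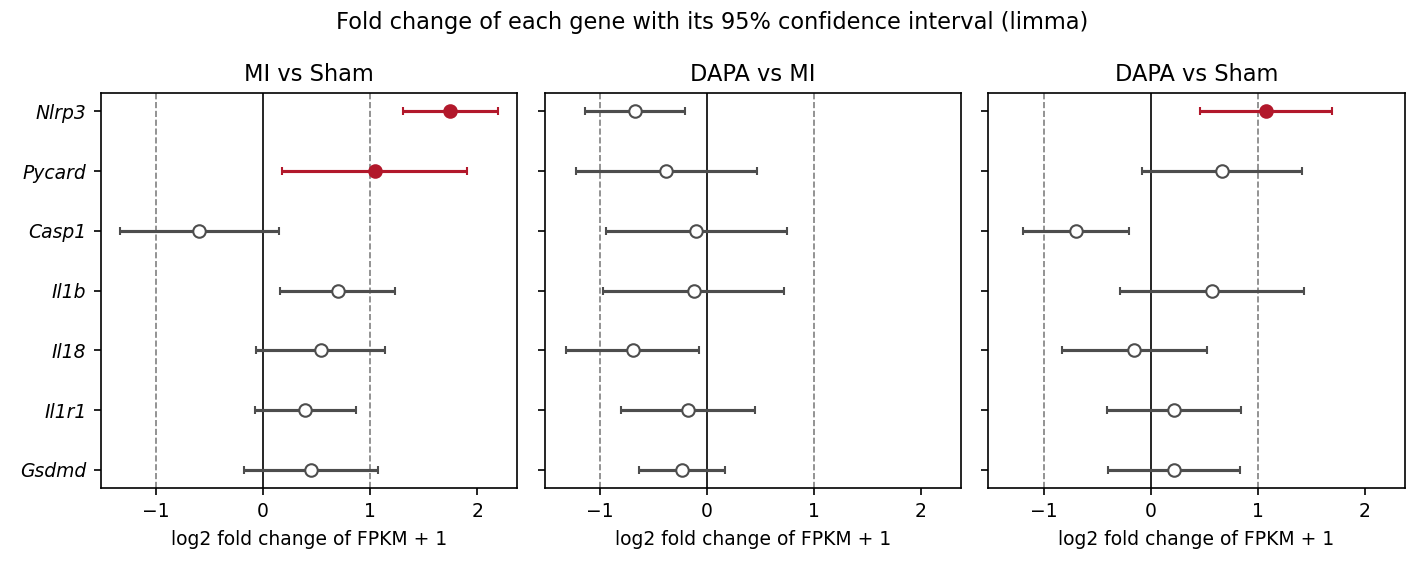
Log2 fold change of FPKM + 1 (horizontal axis) of each gene in the 3 comparisons, with limma's 95% confidence interval, where DAPA stands for group MI + DAPA (1st d), filled red points are called and dashed lines mark the fold threshold. Called are Nlrp3 (1.75) and Pycard (1.04) in MI vs. Sham and Nlrp3 (1.08) in DAPA vs. Sham.

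Ratios of 2 members within a rat do not depend on how the libraries were scaled, and 3 such ratios, chosen after the values had been seen, are given as a description. The ratio of Nlrp3 to Casp1 was 0.0152, 0.0170 and 0.00773 in the Sham group, 0.345, 0.144 and 0.215 in the MI group, and 0.137, 0.104 and 0.123 in the treated rats. That of Pycard to Casp1 was 0.808, 0.437 and 0.504 in the Sham group, 2.15, 1.86 and 1.63 in the MI group, and 1.56, 1.41 and 1.62 in the treated rats. For both ratios the 3 groups did not overlap, with the MI group highest. Sensor and adaptor were thus high relative to the protease after MI in every rat. How often other genes set against Casp1 do the same was not computed. Nlrp3 rests on 7 to 17 reads per Sham library. The margin between the groups with MI was narrow, at 1.63 against 1.62 for Pycard to Casp1 and at 0.144 against 0.137 for Nlrp3 to Casp1. The ratio of Il1b to Il18 was 1.01, 0.356 and 0.321 in the Sham group, 0.609, 0.563 and 0.573 in the MI group, and 1.37, 0.721 and 0.716 in the treated rats, which were all above the MI group.

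**Figure D3:**
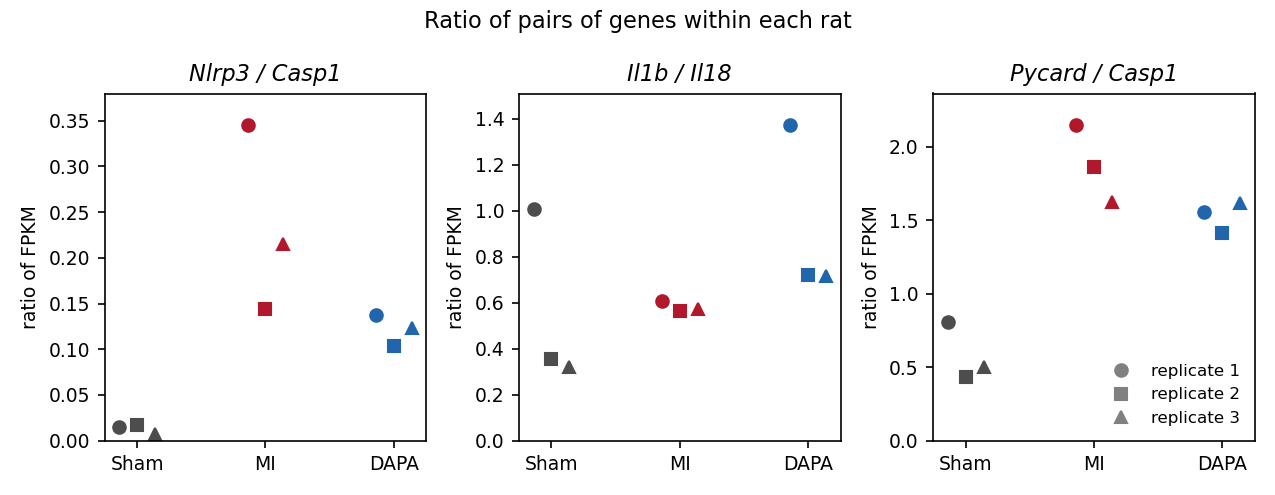
Ratio of FPKM (vertical axes from 0) of 3 pairs of genes in each rat, by group, with symbols for the replicate number and DAPA for group MI + DAPA (1st d). Nlrp3 to Casp1 is at most 0.0170 in the Sham group and at least 0.104 in the other rats.

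Macrophages are a main source of inflammasome genes, and their markers were measured beside the members. Of 13 markers found, 12 were called higher in the MI group than in the Sham group, and none of the 13 was at 0 in all rats. Their summed FPKM was 211.1 to 576.5 in the Sham group, 2098 to 3740 in the MI group and 1154 to 2131 in the treated rats. Their mean log2(FPKM + 1) was 3.55, 5.82 and 5.20 in the 3 groups.

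The level of each member was also set against that mean in each rat. On this measure a gene whose own level did not differ between the MI group and the Sham group would stand at -2.26, because the marker mean itself rose, so a negative sign is largely fixed by the subtraction. Of all 13485 genes tested, 90.5% were lower in the MI group without overlap, and 6 of the 7 members were. The members ran from -0.51 for Nlrp3, which overlapped, and -1.22 for Pycard to -2.86 for Casp1, and all but Casp1 lay above the value of no change. The sign of Nlrp3 is tied to the pseudocount, since with a pseudocount of 0.1 it differed by 0.66. From the MI group to the treated rats the value of no change was 0.62, and the measure differed by -0.05 for Nlrp3 and -0.07 for Il18 (exact permutation p = 0.9 and 1.0), the members without overlap in FPKM. It was 0.52 higher with DAPA for Casp1, without overlap (exact permutation p = 0.1, the smallest that 3 rats against 3 allow), as in 22.7% of all genes. The part of macrophage content in the members' values was not tested.

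**Figure D4:**
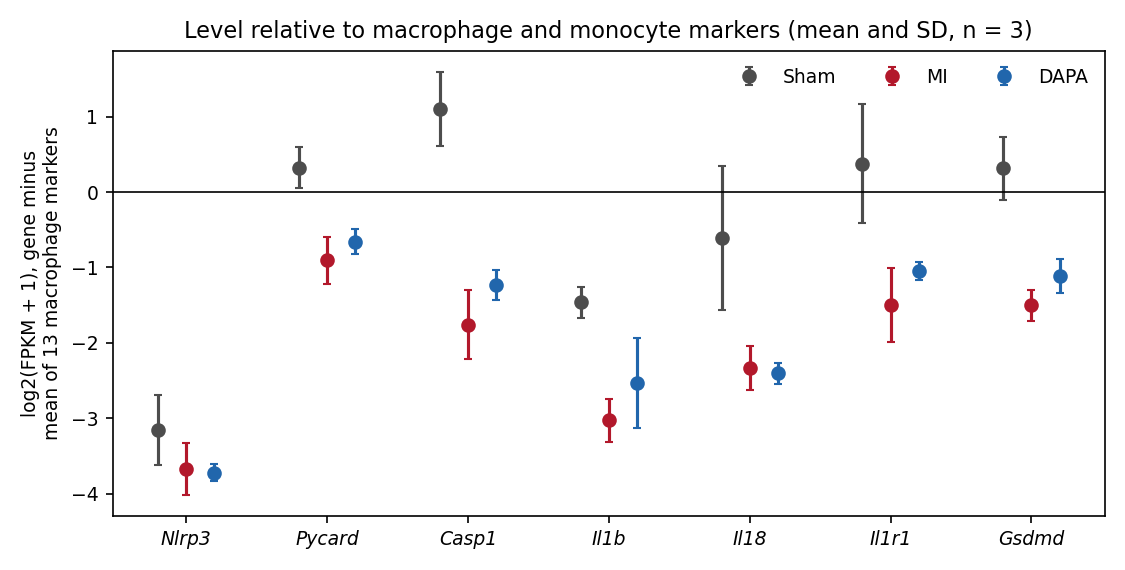
Level of each gene minus the mean of 13 macrophage and monocyte markers, both as log2(FPKM + 1) (vertical axis), as mean and SD of 3 rats per group, with DAPA for group MI + DAPA (1st d). A gene with no change of its own would fall by 2.26 from Sham to MI, as the marker mean rose by that much, and the difference of MI minus Sham is -0.51 for Nlrp3 and -2.86 for Casp1.

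Other cell types moved with the groups too. Endothelial markers had a summed FPKM of 1127 to 1345 in the Sham group, 323.7 to 417.2 in the MI group and 450.6 to 478.2 in the treated rats, with 6 of 8 called lower after MI. The mean of Casp1 was highest in the Sham group as well. MI replicate 2, with the lowest endothelial sum, had 25.3 FPKM of Casp1, within the range of the Sham group. Fibroblast markers rose in 10 of 10 after MI. B cell and plasma cell markers reached 3867 in MI replicate 2, beside 6.85 to 673.9 in the other rats, and that rat was the highest of the 9 in 4 of the 7 members. T cell and NK cell markers were also highest there, at 312.8 beside 14.99 to 109.1. The same rat was highest in macrophage and fibroblast markers, at 3740 and 8419, and lowest in cardiomyocyte and endothelial markers, at 3106 and 323.7. Neutrophil markers were called higher in 1 of 4 tested. The part of these cell types in the members' values was not tested.

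Around the 7 members, 102 further genes of the pathway were listed, of which 93 were found by symbol. Between the MI group and the Sham group, 14 of 66 tested were called higher and 3 lower, beside 12.1% and 10.3% of all genes. Their median difference was 0.20, beside -0.005 over all genes.

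Among the receptors and signalling genes that prime the inflammasome through NF-kB, 6 of 27 tested were called higher and 1 lower. Tlr7, a sensor of single-stranded RNA, averaged 1.47 ± 0.167 FPKM in Sham and 7.05 ± 0.344 FPKM after MI (SD over 3 rats), a rise of 1.71 (limma adjusted p = 0.00103). Lbp, which carries bacterial lipopolysaccharide to CD14, rose by 4.09 (limma adjusted p = 0.00329), the TNF receptor gene Tnfrsf1a by 1.32 (limma adjusted p = 0.00342) and the lipopolysaccharide receptor gene Tlr4 by 1.22 (limma adjusted p = 0.00409). The gene called lower was Nfkbia, which encodes an inhibitor of NF-kB and is named outside the rule, after its values had been seen.

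Among the genes of the second signal, 4 of 11 tested were called higher and 0 lower. The ATP-gated channel gene P2rx4 rose by 1.49, the lysosomal protease gene Ctsb by 2.03, Clic4 by 1.44 and the potassium channel gene Kcnk13 by 1.31. P2rx7, the ATP-gated channel best known for activating NLRP3, lies outside the rule for named genes and was chosen for its role after its values had been seen. Its mean was 0.993 in the Sham group and 1.13 in the MI group, a difference of 0.09 (limma adjusted p = 0.806).

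Of the other sensors and sensor partners, 0 of 9 tested were called in limma, and their median difference was 0.03. That median covers differences in both directions. The sensor partner Nek7 had means of 9.18 FPKM in the Sham group and 18.6 in the MI group, and the sensor Nod1 29.3 and 15.8. Neither gene overlapped between these groups, as in 54.6% of all genes. Both are named outside the rule, after their values had been seen. Of the other caspases and pore or rupture genes, Ninj1, which encodes a protein of membrane rupture, rose by 1.28 (limma adjusted p = 0.0141). Casp4, whose protein cleaves gasdermin D without the NLRP3 platform, fell by 1.16 (limma adjusted p = 0.00581), with a mean of 36.1 in the Sham group and 15.6 in the MI group. In the IL-1 family, Il1rn, which encodes the natural antagonist of the IL-1 receptor, rose by 1.89, and Sigirr, a negative regulator of IL-1 signalling, fell by 1.38 (limma adjusted p = 0.0163 and 0.00648). The IL-1 responsive genes Vcam1, an adhesion molecule, and Ptgs2, a prostaglandin synthase, rose by 2.288 and 1.498, as 2 of 9 tested.

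Rescaling to a common total left 0 of these pathway genes called lower and 57 called higher in MI vs. Sham. With the mitochondrial genome left out of the rescaling, 22 of 76 tested were called higher and 3 lower. Between the treated rats and the MI group, 0 of 70 pathway genes tested were called by limma, beside 0.951% higher and 1.11% lower among all genes, with 6 at an unadjusted p under 0.05, beside 8.49% of all genes. With limma-voom on recovered reads 3 were called lower, Lbp, Il18rap and Kcnk13. Between the treated rats and the Sham group, 12 of 62 were called higher and 3 lower, beside 9.54% and 8.16% of all genes, the latter being Sigirr, Casp4 and Lcn2.

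The genes whose profiles over the 9 rats were most like a member's were ranked by the root mean square difference of centred log2(FPKM + 1) among 13078 genes. For Nlrp3 these were Tlr7 (0.116), Irs1 (0.124) and Cd200r1 (0.133). Tlr7 had means of 1.47, 7.05 and 4.50 FPKM in groups Sham, MI and MI + DAPA (1st d). For Pycard they were Fgd2 (0.173), Arhgap15 (0.175) and Csf2ra (0.178), and for Casp1 Adam19 (0.159), Abcg3l1 (0.159) and Slco2b1 (0.196). The nearest gene was Fam110b for Il1b (0.158), Cenpu for Il18 (0.137), Zfand1 for Il1r1 (0.135) and an unnamed locus for Gsdmd (0.086). Profiles in 9 rats share library and depth, and the likeness is a description.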

How the data were processed

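RNA-seq of left ventricle from 9 rats was used, 3 per group, and each column was assigned to its rat by its name. Each label lists a pair of codes whose meaning is not stated, and each column was taken as 1 rat. The authors deposited FPKM values per gene and rat. The submitters' processing notes name HISAT2 2.0.5, StringTie 1.3.3b, featureCounts 1.5.0-p3 and DESeq2, and the genome build is not given in the sources used here, so gene positions come from RefSeq. Whole reads were recovered from the steps of the FPKM values for 18896 of 18896 eligible genes (tolerance 0.002 reads).

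A gene was tested where 3 or more of the 6 rats compared reached 1 FPKM. The genes were fitted with limma 3.58.1 (R 4.3.3, trend) on log2(FPKM + 1), in place of the authors' count test. A call needed an unadjusted p under 0.05 together with a log2 fold change beyond 1 in either direction, as in the study, and Benjamini-Hochberg adjusted p-values cover all genes tested. The limma p-values rest on the spread between these rats, with the variance of each gene drawn toward a trend over all genes tested. Exact permutation tests compared single values over rats. The scripts were tested on simulated data.

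The members and lists were chosen with earlier results of these data known. Named genes are all members, at most 4 genes per pathway list with the smallest p among those called in MI vs. Sham or DAPA vs. MI, and the 3 genes most like each member. Alternatives covered pseudocount, filter, scaling, samples in the fit, replicate block, thresholds, trend, recovered reads and each rat left out. When rats were left out, the filter was first reapplied to the remaining 5 rats. After it was seen that this takes Nlrp3 out of the test without any 1 rat of group MI, fits on the same genes as with all 6 rats were added, and both are given. Added after seeing the data were also the macrophage comparison with a pseudocount of 0.1 and without Lyz2.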

Additional observations from a re-analysis of the deposited data

How the results depend on the processing

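Most results kept their direction and their side of the threshold, in part by construction. Of 456 values of the members' fold changes under other settings, 416 kept both, and of 132 counts 92 stayed within 1.5 times the value reported. The other 40 counts moved further. Fits in which the filter removed Nlrp3 gave no value and are not among the 456. Most members were not called in the main fit, so for them an unchanged side means no call. The settings with adjusted p and without a fold threshold reuse the main fit, so the direction could not change there. Of the 456 values, 246 come from leaving out rats. There a rat counts with the filter reapplied and again on the same genes. Between MI and Sham, the 2 members called became 1 with adjusted p, 1 with the replicate block and 6 after rescaling to a common total, and the 17 pathway genes became 33 without a fold threshold and 57 after rescaling. In DAPA vs. MI, the 0 members became 2 without a fold threshold and 2 after rescaling. The 0 pathway genes became 6 without a fold threshold, 1 each with a pseudocount of 0.1, all 9 rats in 1 fit and the replicate block, 4 after rescaling, 4 after rescaling without the mitochondrial genome and 3 with limma-voom. In DAPA vs. Sham, the 1 member became 2 without a fold threshold and 5 after rescaling, and the 15 pathway genes became 26 and 40. Without the mitochondrial genome, rescaling gave 2 members in MI vs. Sham, 0 in DAPA vs. MI and 1 in DAPA vs. Sham. It gave 25 pathway genes in MI vs. Sham and 15 in DAPA vs. Sham. The values rescaled with that genome included carry the shift of the median gene that the construction brings.

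With each rat left out and the filter reapplied to the other 5, members called ranged from 0 to 2 in MI vs. Sham and from 0 to 1 in DAPA vs. Sham, and pathway genes from 0 to 2 in DAPA vs. MI. The filter then removed Nlrp3 from the test without any 1 rat of the higher group. On the same genes as with all 6 rats, an alternative added after this was seen, members called ranged from 1 to 2 in MI vs. Sham and from 0 to 1 in DAPA vs. Sham. Nlrp3 kept its call in MI vs. Sham in all 6 fits. Because the list of genes was set with the left-out rat included, these fits do not test how Nlrp3 entered it. Without single rats the differences ranged from -0.437 to 0.229 for Casp1, -0.474 to 0.245 for Il1b and -0.375 to 0.096 for Il1r1 in DAPA vs. MI, and from -0.39 to 0.096 for Il18 and -0.074 to 0.378 for Gsdmd in DAPA vs. Sham. In DAPA vs. MI, Casp1 stood at 0.001 without DAPA replicate 1 and 0.022 without DAPA replicate 2. After rescaling to a common total, Casp1 turned to 0.888 in MI vs. Sham and to 0.436 in DAPA vs. Sham, and Il18 to 0.875 in DAPA vs. Sham. With the mitochondrial genome left out of the rescaling they stood at -0.658, -0.813 and -0.259. Relative to macrophage markers, Nlrp3 turned to 0.656 in MI vs. Sham and 0.384 in DAPA vs. Sham with a pseudocount of 0.1, and without Lyz2 all 21 differences kept their sign. Same-numbered rats had correlations of -0.304 to 0.195 in their deviations from the group means, so the numbers were not taken to pair the rats. Except where named, the cause of a change was not tested. Nlrp3 rests on 7 to 17 reads per Sham library, which limits the precision of its fold.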
